A study of Mus musculus with 16 samples.

Results

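Imiquimod was set against vehicle in the ears of mice that lack miR-146a, a microRNA that restrains inflammatory signalling. The comparison used 8 of the 16 arrays of the study, chosen by their titles: 4 knockout ears given imiquimod (IMQ) and 4 knockout ears given vehicle. The other 8 arrays, 4 wild-type IMQ and 4 wild-type vehicle ears, were used for the spread and for the test of whether the responses differed. All mice were 8 to 11 weeks old, of C57BL/6J background and kept under specific-pathogen-free conditions. The knockouts are labelled B6/Mir-146a-/-, and both genotypes carry no other named allele. IMQ was given as Aldara, a cream with 5% imiquimod, at 31.25 mg a day on the right ear for 3 days, and whole ear flaps were taken on day 4. Neither what the vehicle was made of nor at what hour ears were collected is stated in the labels. RNA was hybridised to Affymetrix Mouse Gene ST 2.1 arrays, and 30943 genes with a symbol were measured, each by 1 probe cluster. The labels do not say that the 4 ears of a group came from 4 mice, so p-values reflect how far these arrays scatter, which may be technical. An ear flap holds epidermis, hair follicles, cartilage, muscle, fat, vessels and leukocytes, and in such bulk RNA fewer cells of a type and less RNA per cell cannot be told apart.

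IMQ is a ligand of the receptor Tlr7, which signals through the adaptor Myd88, the kinases Irak1 and Irak2 and the ligase Traf6 to the transcription factor NF-kB. In mouse skin it gives a psoriasis-like inflammation in which the IL-23 and IL-17 cytokines, neutrophil influx and thickening of the epidermis are the known features. miR-146a is induced by NF-kB and represses Irak1 and Traf6, so it acts as a brake on the pathway that IMQ engages. Its mature sequence is shown because it is what the knockout lacks, beside miR-146b, a separate gene with the same seed. Both are from RefSeq on GRCm38.p6, miR-146a-5p at chr11:43374435-43374456 on the minus strand and miR-146b-5p at chr19:46342790-46342811 on the plus strand. The capitals mark the seed, bases 2 to 8.
miR-146a-5p: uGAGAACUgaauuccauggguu
miR-146b-5p: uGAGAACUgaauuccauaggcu
The 2 sequences differ at 2 bases, both outside the seed. The cluster named Mir146 read 1.78, 1.81, 1.79 and 1.83 (log2) on the vehicle arrays and 1.89, 1.93, 1.73 and 1.83 on the IMQ arrays. It lay at the 0.58th percentile of all genes, and the difference of 0.04 gave an exact permutation p of 0.4 (two-sided, adjusted 0.6 over 3 comparisons, smallest possible 0.0286). At that level, near the floor in both genotypes, the probes did not check the genotype.

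IMQ changed the expression of 4634 of the 30943 genes in knockout ears at an adjusted p under 0.05 (limma, all 16 arrays). Of all genes, 2496 (8.07%) rose and 2138 (6.91%) fell, and these shares are the background against which the gene groups are read. Among the 15801 genes above the mean array median of 3.24 in either knockout group, 15.4% rose and 12.9% fell. The change was at least 2-fold for 454 genes that rose and 367 that fell, and at least 8-fold for 26 and 6. The IMQ and vehicle arrays did not overlap for 2115 of the genes that rose and 1726 of those that fell, while 15.98% of all genes did not overlap. In wild-type ears, 603 genes (1.95%) rose and 523 (1.69%) fell. Vehicle array 3 lay nearest to the IMQ arrays: it was the highest vehicle array for 38.0% of the genes that rose and the lowest for 36.9% of those that fell. Vehicle array 4 held those places for 8.93% and 10.4%.

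Levels of marker RNA of other ear tissues also differed between the groups. The mean of 33 skeletal muscle markers was 7.60 to 8.56 on the knockout vehicle arrays and 6.65 to 7.37 on the knockout IMQ arrays, and these did not overlap. In wild-type ears it was 7.01 to 7.82 with vehicle and 7.01 to 7.71 with IMQ. The mean of 22 adipocyte markers was 5.82 to 6.51 and 5.58 to 5.92 in knockout ears, which overlapped. With both means of each array as covariates, 341 genes rose and 393 fell in knockout ears, and 666 of these 734 had been called the same way without them. The median standard error went from 0.15 to 0.26 in that fit, and 97.7% of the 4634 genes kept their sign, with a median effect 0.86 of the one without covariates. The part of tissue make-up in each response was not tested beyond that fit, whose count is given with most gene groups.

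**Figure D1:**
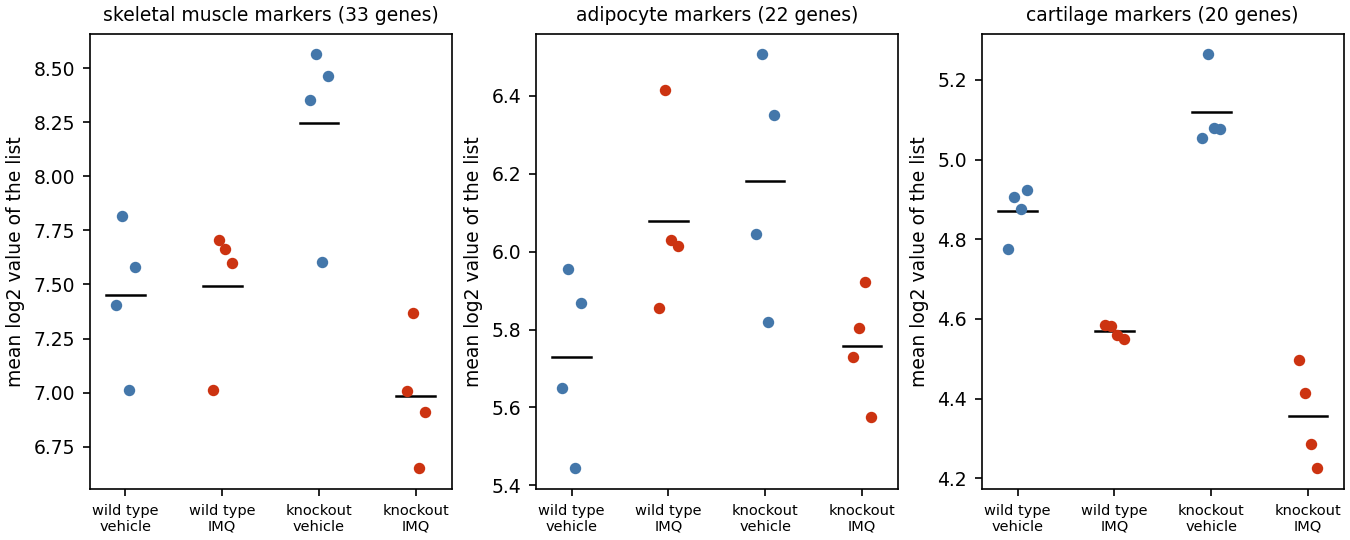
Mean deposited log2 value of the skeletal muscle, adipocyte and cartilage marker lists on each array (y axis) in the 4 groups (x axis); points are arrays and bars are means of 4. The muscle mean of the 4 knockout vehicle arrays, 7.60 to 8.56, lies above that of the 4 knockout IMQ arrays, 6.65 to 7.37.

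The largest rise was that of Saa3, an acute-phase apolipoprotein made at sites of inflammation. Saa3 read 4.31, 6.78, 6.13 and 4.74 on the vehicle arrays and 10.37, 10.41, 10.31 and 10 on the IMQ arrays. The lowest IMQ array stood well above the highest vehicle array, and the rise was 27.5-fold (log2 change 4.78 ± 0.40, SE, n = 4 and 4, limma adjusted p = 3.13e-07). Changes given from here on with ± are log2 changes with the standard error of the same fit, on 4 against 4 arrays. Il1b, the secreted IL-1 of myeloid cells, read 2.47, 4.44, 6.80 and 4.55 with vehicle and 9.37, 9.27, 8.24 and 9.21 with IMQ. It rose by 4.46 ± 0.73, and its vehicle arrays were more scattered than those of Saa3, from the lowest on array 1 to the highest on array 3. Cxcl13, a chemokine that draws B cells, rose by 4.05 ± 0.30, and Ccl3, which draws monocytes, by 4.06 ± 0.63. For all 4 of these genes every IMQ array lay above every vehicle array.

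The largest fall was that of Alox12e, an epidermal lipoxygenase. Alox12e read 7.2, 6.77, 6.63 and 7.29 with vehicle and 2.96, 3.13, 3.04 and 3.04 with IMQ, a 15.2-fold fall (log2 change -3.93 ± 0.16, adjusted p = 6.88e-11). The IMQ values lay below the array median, which may understate the fall. Krt24, a keratin of differentiated epithelium, fell by 3.89 ± 0.43, from 8.57, 8.20, 8.92 and 8.38 to 5.16, 3.20, 5.74 and 4.41. Flg2, a filaggrin-like protein of the cornified layer, read 9.81, 9.46, 9.36 and 9.81 and 5.51, 5.56, 6.56 and 5.39 and fell by 3.85 ± 0.22. Mt4, a metallothionein of stratified epithelium, fell by 3.80 ± 0.23 and Krt15, a keratin of basal and follicle stem cells (log2 change -3.23 ± 0.14). For these 5 epithelial genes all 4 IMQ arrays lay below all 4 vehicle arrays. Sema3d, a secreted guidance protein, fell by 2.87 ± 0.16, Calm5, a calmodulin-like protein (log2 change -2.16 ± 0.25), Bbox1, an enzyme of carnitine synthesis (log2 change -2.12 ± 0.21) and the kinase gene Nuak1 (log2 change -2.09 ± 0.20).

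**Figure D2:**
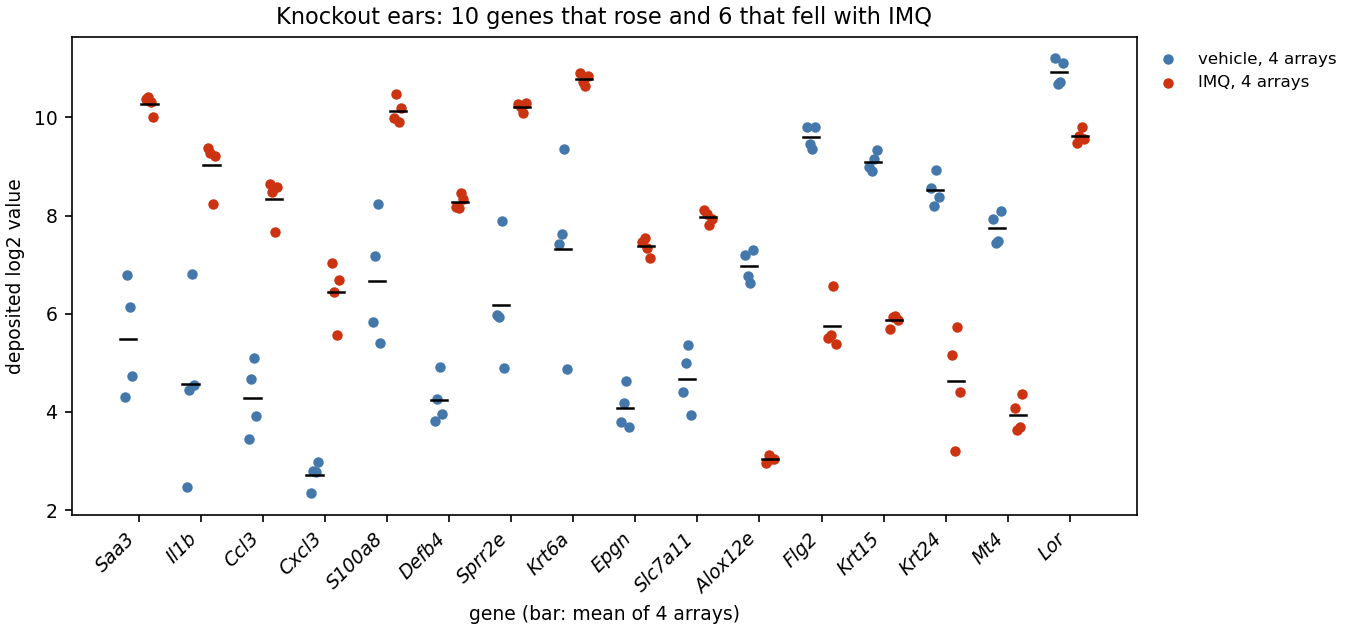
Deposited log2 values (y axis) of 10 genes that rose and 6 that fell (x axis) on the 4 knockout vehicle and 4 knockout IMQ arrays; points are arrays and bars are means. IMQ points lie above the vehicle points for the 10 genes on the left and below them for the 6 on the right, and the vehicle points of Il1b, Krt6a and Sprr2e are spread widely.

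In the pathway that IMQ engages, co-receptor and adaptor transcripts rose and the core kinases did not pass the test. Of 26 toll-like receptors and adaptors, 10 rose and 1 fell in knockout ears, and 0 rose with the covariates (limma; 7 at an unadjusted p under 0.05). Cd14, the lipopolysaccharide co-receptor, rose by 2.73 ± 0.40 and Myd88, which read 6.87, 6.54, 6.99 and 6.23 with vehicle and 7.82, 7.71, 7.52 and 7.70 with IMQ, by 1.03 ± 0.14. Tlr5, the flagellin receptor, fell by 0.90 ± 0.15. Tlr7, the receptor of IMQ, changed by -0.10 ± 0.11 (adjusted p = 0.665) at a level below the array median in both knockout groups.

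The miR-146a targets Irak1 and Traf6 did not pass the test. Irak1 changed by -0.02 ± 0.14 (adjusted p = 0.965), Traf6 by 0.23 ± 0.10 (adjusted p = 0.154) and Irak2 (log2 change -0.21 ± 0.10, adjusted p = 0.188). Irak3, an inhibitory member of the kinase family, rose by 0.59 ± 0.15, and its adjusted p was 0.0866 without vehicle arrays 3 and 4. Of 26 genes reported as miR-146a targets, 5 rose and 2 fell, with 8.07% and 6.91% of all genes as the background. Only 2 of the 26 lay below the array median in both knockout groups. The closer background is thus that of genes above this median in either knockout group, of which 15.4% rose and 12.9% fell. No value here shows what the absence of miR-146a did within this comparison, since both groups lack it.

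Of 15 NF-kB subunits and scaffolds, 5 rose and 3 fell, and with the covariates 0 rose (limma; 1 at an unadjusted p under 0.05). Rel, an NF-kB subunit, rose by 0.51 ± 0.13 and Malt1, a scaffold protease, by 0.52 ± 0.11, while Card14, the scaffold of keratinocytes, fell by 1.04 ± 0.15. Of 14 inhibitors and modulators 6 rose and 1 fell, and with the covariates 0 rose (limma, 5 at an unadjusted p under 0.05). Bcl3, a nuclear modulator of NF-kB, read 3.79, 4.19, 4.82 and 3.27 with vehicle and 6.50, 6.32, 6.29 and 5.63 with IMQ and rose 4.49-fold (adjusted p = 2.05e-05). Zc3h12a, an RNase that degrades cytokine mRNAs, rose by 1.41 ± 0.19, Nfkbia, which holds NF-kB in the cytoplasm, by 0.98 ± 0.15 and Nfkbiz, a cofactor for IL-17 target genes, by 0.81 ± 0.12.

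Cytokines of the IL-1 and IL-36 families rose. Of 18 members, 9 rose and 2 fell, and 5 rose with the covariates. Il1a, the IL-1 that keratinocytes store, read 4.78, 5.07, 4.88 and 4.70 with vehicle and 7.21, 7.01, 7.32 and 6.99 with IMQ, a rise of 4.84-fold (adjusted p = 3.97e-08). Il33, an alarmin of epithelial nuclei, rose by 1.58 ± 0.12. The IL-36 genes Il1f9 and Il1f6 rose by 1.39 ± 0.13 and 1.38 ± 0.17, and their relative Il1f8 by 0.76 ± 0.17. Il18, an IL-1 family cytokine of resting epidermis, fell by 0.96 ± 0.17.

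In the IL-17, IL-22 and IL-23 axis, 7 of 19 members rose and 2 fell, and 2 rose with the covariates. Ccl20, the ligand of Ccr6 on IL-17-producing cells, read 4.74, 4.69, 4.69 and 4.53 and 6.03, 6.44, 6.34 and 5.84 and rose by 1.5 ± 0.16. Il17f read 3.58, 3.77, 4.44 and 3.73 with vehicle and 6.22, 6.41, 4.47 and 5.14 with IMQ and rose by 1.68 ± 0.36 (adjusted p = 0.00298), with IMQ array 3 barely above vehicle array 3. Il23a, the subunit specific to IL-23, rose by 0.75 ± 0.16, from a vehicle mean of 2.71, below the array median, to 3.46. In wild-type ears Il23a averaged 3.28 with vehicle and 3.38 with IMQ. Il17a (0.10 ± 0.18, adjusted p = 0.817) and Il22 (0.06 ± 0.11, adjusted p = 0.805) did not pass the test at levels below the array median. Il22ra1, an IL-22 receptor chain of keratinocytes, fell by 0.45 ± 0.14 (adjusted p = 0.0426). The call for Il22ra1 was lost when any 1 of 9 arrays was left out, with an adjusted p of up to 0.127 without IMQ array 1.

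Of 5 members of the IL-20 subfamily and its receptors, 2 ligands rose and 2 receptor chains fell. Il19 rose by 2.62 ± 0.31 and Il24 by 1.19 ± 0.26, while the receptor chains Il20ra and Il20rb fell (log2 changes -1.61 ± 0.19 and -1.01 ± 0.13). In the IL-6 family, 5 of 13 members rose and 2 fell. Socs3, the feedback inhibitor of Stat3, rose by 1.55 ± 0.20, the oncostatin M receptor gene Osmr by 1.53 ± 0.16 and its ligand Osm by 1.27 ± 0.30, while the receptor gene Lifr fell by 0.56 ± 0.14. The adjusted p of Lifr was 0.0518 when the 8 knockout arrays were fitted alone. In the TNF axis 6 of 15 rose and 1 fell, and 2 rose with the covariates. Tnf rose by 1.78 ± 0.26, and the TNF-induced genes Tnfaip2 and Tnfaip6 by 1.54 ± 0.12 and 1.54 ± 0.28.

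Chemokines that draw neutrophils rose. Of 11 genes of this kind 5 rose, none fell, and 4 rose with the covariates. Cxcl3 read 2.35, 2.80, 2.78 and 2.97 with vehicle and 7.04, 6.45, 5.57 and 6.68 with IMQ, a rise of 13.1-fold (adjusted p = 4.91e-06). Cxcl1 rose by 2.49 ± 0.33, Cxcl5 by 2.42 ± 0.28, the receptor gene Cxcr2 by 1.74 ± 0.20 and the G-CSF receptor gene Csf3r by 2.18 ± 0.27. The ligands lay below the array median with vehicle, which may understate their rises. Of 19 monocyte and eosinophil chemokine and receptor genes 9 rose, but 1 with the covariates. Beside Ccl3, the monocyte chemokine Ccl7 rose by 1.72 ± 0.25 and the receptor gene Ccr1 by 1.66 ± 0.26. Of 18 lymphocyte and homing chemokines 4 rose and 2 fell, and 2 rose with the covariates. The homing chemokine Ccl19 rose by 1.08 ± 0.20 and Cxcl12, a retention signal for leukocytes, by 1.10 ± 0.28, with an adjusted p of 0.0873 for Cxcl12 without vehicle arrays 3 and 4.

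Neutrophil markers rose. No T or B cell marker was called higher, and many of these lay below the array median. Of 25 neutrophil markers 14 rose and none fell, and 8 rose with the covariates. Their mean was 3.78 to 4.08 with vehicle and 5.05 to 5.28 with IMQ, without overlap. Retnlg, a resistin-like protein of neutrophils, read 2.21, 2.50, 2.74 and 2.75 and 5.87, 5.96, 5.96 and 5.81 and rose 10.2-fold (adjusted p = 7.26e-08). Stfa2l1, a stefin of neutrophils, rose by 3.65 ± 0.35, and Ly6g, their surface marker, changed by 0.18 ± 0.17 (adjusted p = 0.591) at a level below the array median.

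Of 30 monocyte and macrophage markers 9 rose and 3 fell, and 4 rose with the covariates. Chil3, a chitinase-like protein of activated myeloid cells, rose by 3.12 ± 0.21, the integrin gene Itgam by 2.33 ± 0.21 and Emr1, a surface receptor of macrophages, by 1.12 ± 0.28 (adjusted p = 0.00895, and 0.0939 without vehicle arrays 3 and 4). Chil3 and Retnla are both used as markers of alternatively activated mouse macrophages, and they moved in opposite directions. Retnla fell by 2.04 ± 0.24 and the phagocytic receptor gene Mertk by 0.71 ± 0.17. Of 18 Langerhans and dendritic cell markers 2 rose and 3 fell, with a median log2 change of 0.0025. With the covariates 0 rose and 0 fell (limma, 2 and 1 at an unadjusted p under 0.05). Among those that fell were the lectin genes Mgl2 (log2 change -1.10 ± 0.26) and Cd209d (log2 change -0.92 ± 0.29), and Cd80, given below, was among those that rose. The call for Cd209d was lost when any 1 of 5 arrays was left out, with an adjusted p of up to 0.144 without vehicle array 4. Of 12 mast cell markers 1 rose and 1 fell, with Hdc, the enzyme that makes histamine and which neutrophils also express, up by 2.71 ± 0.32.

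Of 12 MHC class II antigen presentation genes 6 fell and none rose, and 3 fell with the covariates. H2-Ab1 read 8.18, 8.81, 8.30 and 8.86 with vehicle and 7.43, 7.59, 7.66 and 7.52 with IMQ and fell by 0.99 ± 0.14. Cd74, the invariant chain, fell by 0.98 ± 0.13 and H2-Aa (log2 change -0.94 ± 0.14), while the co-stimulatory gene Cd80 rose by 1.38 ± 0.30. Of 25 T cell markers 13 lay below the array median in both knockout groups. In this list 0 rose (limma, 1 at an unadjusted p under 0.05) and 1 fell. That gene was Cd3g, a chain of the T cell receptor complex (-0.57 ± 0.14, adjusted p = 0.00973, and 0.0786 without vehicle arrays 3 and 4). Its partner Cd3e changed by -0.59 ± 0.27 (adjusted p = 0.168), and Cd207, the langerin of Langerhans cells (log2 change -0.37 ± 0.18, adjusted p = 0.2). No B cell or plasma cell marker of 10 passed the test (limma, 0 higher and 1 lower at an unadjusted p under 0.05). All 10 lay below the array median in both knockout groups, which limits what could be measured.

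Of 21 endothelial genes 7 rose, 2 with the covariates. The selectin genes Selp and Sele, which capture leukocytes from the blood, rose by 2.22 ± 0.28 and 1.08 ± 0.25. Plvap, a protein of vessel fenestrae, rose by 0.80 ± 0.25 (adjusted p = 0.04), a call lost when any 1 of 6 arrays was left out, with an adjusted p of up to 0.128 without vehicle array 3. Of 13 acute-phase genes 7 rose and 1 fell, and 2 rose with the covariates. Beside Saa3, the protease inhibitor gene Serpina3n rose by 2.12 ± 0.26 and Saa1 by 1.64 ± 0.24. Of 17 complement genes 4 rose here and 8 in wild-type ears, and the difference between these responses passed the test for 0 of them (limma; 7 at an unadjusted p under 0.05). Cfb, of the alternative complement pathway, rose by 1.43 ± 0.14, and C3, its central component, read 7.85, 9.23, 7.48 and 8.83 and 8.80, 9.38, 8.84 and 8.66 (change 0.57 ± 0.28, adjusted p = 0.213, and 0.0249 without vehicle array 2). Of 37 interferon-stimulated genes 6 rose and 1 did with the covariates. The schlafen gene Slfn4 rose by 2.94 ± 0.49 and Gsdmc, a gasdermin of epithelium, by 1.84 ± 0.34.

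Genes that wounded and psoriatic epidermis is known to express rose in knockout ears. Of 14 stress keratins and associated genes 13 rose with a median log2 change of 1.94, against -0.02 over all genes, and 7 rose with the covariates. Their mean was 5.74 to 7.07 with vehicle and 8.40 to 8.66 with IMQ. Krt6a, a keratin of activated keratinocytes, read 7.42, 7.63, 9.36 and 4.88 with vehicle and 10.91, 10.72, 10.64 and 10.84 with IMQ and rose by 3.46 ± 0.55. Vehicle array 3 was the highest of its vehicle arrays and still lay below all 4 IMQ arrays. Krt6b rose by 3.0 ± 0.53, Krt16 by 1.92 ± 0.33 and Krt17 by 2.21 ± 0.31.

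Of 14 small proline-rich genes, which code for cross-linked proteins of the cornified envelope, 12 rose with a median of 2.46, and 9 rose with the covariates. Sprr2e read 5.97, 5.94, 7.89 and 4.90 with vehicle and 10.28, 10.21, 10.09 and 10.29 with IMQ, a rise of 16.5-fold (adjusted p = 1.46e-06). Sprr2j-ps, listed as a pseudogene, rose by 3.69 ± 0.27, Sprr1a by 3.08 ± 0.24 and Sprr1b by 2.58 ± 0.30. All 6 late cornified envelope genes of group 3 rose, 4 with the covariates. Lce3d read 6.67, 7.38, 7.44 and 5.17 and 9.74, 9.75, 10.01 and 9.62, a rise of 3.12 ± 0.36, and Lce3a rose by 2.55 ± 0.24. Rptn, repetin, rose by 2.46 ± 0.28. Members of the small proline-rich, late cornified envelope, defensin and stefin families are close in sequence, and probes may not separate them.

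Antimicrobial and protease genes of the upper epidermis rose as well. Of 17 antimicrobial genes 9 rose and 2 fell, and 6 rose with the covariates. Defb4, a beta-defensin that IL-17 induces, read 3.81, 4.26, 4.91 and 3.96 with vehicle and 8.17, 8.15, 8.45 and 8.33 with IMQ, a rise of 16.4-fold (adjusted p = 1.18e-08). Its relative Defb3 rose by 4.04 ± 0.32 and Lcn2, which binds bacterial siderophores, by 3.33 ± 0.28, while the lysozyme gene Lyz1 fell by 1.22 ± 0.26. Of 13 S100 genes 6 rose and 2 fell, and 2 rose with the covariates. S100a8 and S100a9, the subunits of calprotectin, rose by 3.48 ± 0.40 and 2.93 ± 0.30 and S100a7a, psoriasin, by 2.91 ± 0.26, while S100b, of Schwann cells and cartilage, fell by 1.29 ± 0.19.

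Of 17 kallikreins and their inhibitor 12 rose and none fell, and 5 rose with the covariates. These serine proteases cut the junctions of shedding corneocytes. Klk10 read 6.24, 6.20, 6.77 and 5.64 with vehicle and 8.82, 8.67, 8.96 and 8.42 with IMQ and rose by 2.50 ± 0.18. Klk6 rose by 2.71 ± 0.30, Klk13 by 2.06 ± 0.22, Prss27, another serine protease, by 2.12 ± 0.22 and the inhibitor gene Spink5 by 0.67 ± 0.10. Of 21 protease inhibitors 12 rose and 2 fell, 3 and 1 with the covariates, and the rises were led by Slpi (3.17 ± 0.22) and Serpinb3a (2.66 ± 0.29).

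Of 12 EGFR ligands and receptors 5 rose and 1 fell, and 3 rose with the covariates. Epgn, epigen, read 3.80, 4.19, 4.62 and 3.70 with vehicle and 7.46, 7.55, 7.33 and 7.14 with IMQ and rose by 3.29 ± 0.27, Hbegf by 2.79 ± 0.27 and Areg, amphiregulin, by 2.71 ± 0.32. Of 24 connexins and desmosomal genes 7 rose and 5 fell, 5 and 1 with the covariates. The connexin genes Gjb2 and Gja1, of gap junctions, rose by 3.04 ± 0.28 and 1.83 ± 0.14, and the desmosomal cadherin gene Dsc2 by 2.22 ± 0.21. Of 28 lipoxygenase and barrier lipid genes 12 rose and 5 fell, and 2 rose with the covariates. Cers3, which makes the long ceramides of the barrier, rose by 1.31 ± 0.13, Ugcg, which glucosylates ceramide, by 1.04 ± 0.10 and the lipoxygenase gene Alox8 by 2.03 ± 0.42. Of 18 retinoid genes 5 rose and 1 fell, with a median log2 change of -0.04. Dhrs9, which oxidises retinol, rose by 1.94 ± 0.19, and the binding protein gene Crabp2 by 1.64 ± 0.12.

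Most late cornified envelope genes of groups 1 and 2 fell, while other lists of terminal differentiation were mixed. Among late cornified envelope genes of groups 1 and 2, 12 of 14 fell, 2 with the covariates, in contrast to group 3. Lce1m read 8.04, 7.28, 7.65 and 8.51 with vehicle and 4.90, 4.54, 5.47 and 4.74 with IMQ and fell by 2.96 ± 0.22. Lor, loricrin, the main protein of the envelope, fell by 1.31 ± 0.13, and Hal, the histidase that makes urocanic acid (log2 change -1.58 ± 0.13). Of 21 cornified envelope precursors and processing enzymes 5 rose and 5 fell, and of 7 filaggrin and S100-fused genes 1 rose and 2 fell. Flg, filaggrin, changed by -0.69 ± 0.27 (adjusted p = 0.101), and without vehicle array 3 its adjusted p was 0.00327 and without IMQ array 2 0.0429.

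Of 20 basal and suprabasal keratins 7 fell and 3 rose, 3 and 0 with the covariates (1 higher at an unadjusted p under 0.05, limma). Krt77 fell by 3.15 ± 0.36 and Krt10, of the suprabasal layers (log2 change -0.39 ± 0.10), with an adjusted p of 0.0804 for Krt10 after quantile normalization. The 3 that rose were the basal keratins Krt14 (0.47 ± 0.10) and Krt5 (0.34 ± 0.10) and the suprabasal Krt1 (0.46 ± 0.12). The call for Krt5 was lost when any 1 of 5 arrays was left out (vehicle 2 or 4, IMQ 1, 3 or 4), with an adjusted p of up to 0.0773, and that of Krt1 without vehicle arrays 3 and 4 together (adjusted p = 0.122). Of 19 hair follicle stem and germ genes 9 fell and none rose, 3 with the covariates. Lgr6 and Lgr5, receptors that mark follicle stem cells, fell (log2 changes -1.55 ± 0.16 and -0.85 ± 0.20) and Postn, periostin (log2 change -1.08 ± 0.18). Of 23 hair shaft and inner root sheath genes 0 rose and 1 fell (1 and 1 at an unadjusted p under 0.05, limma), and 17 lay below the array median in both knockout groups.

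**Figure D3:**
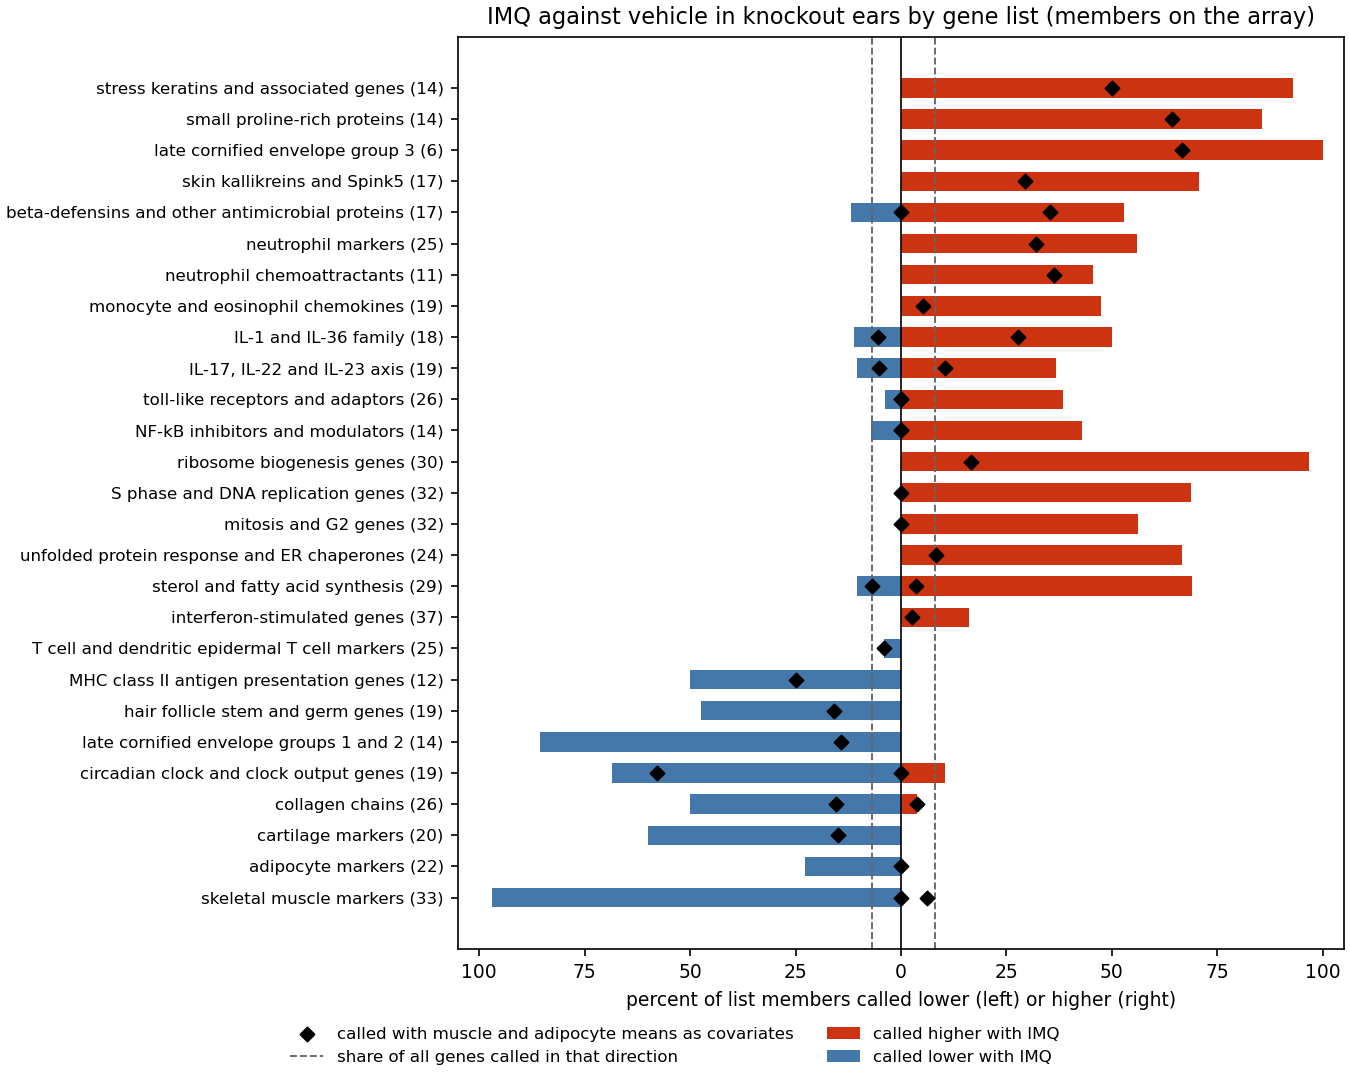
Percent of the members of each gene list (y axis, members in brackets) called higher (right) or lower (left) with IMQ in knockout ears (x axis); diamonds mark the percent called with the muscle and adipocyte means as covariates, and dashed lines the 8.07% and 6.91% of all genes called. All 6 members of late cornified envelope group 3 were called higher, while the diamonds of S phase, mitosis and NF-kB inhibitors lie at 0.

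Genes of growth and division rose, but few held with the covariates. Of 32 S phase genes 22 rose and of 32 mitosis genes 18, none with the covariates (limma; 4 and 2 at an unadjusted p under 0.05). Mcm3, of the replicative helicase, rose by 1.18 ± 0.18, Rrm2, which makes deoxynucleotides, by 1.15 ± 0.15 and the repressor gene E2f8 by 1.09 ± 0.17. Plk1 read 5.57, 5.45, 6.22 and 5.11 with vehicle and 6.67, 6.34, 7 and 6.64 with IMQ and rose by 1.07 ± 0.20, Cdc20 by 1.08 ± 0.12 and the kinetochore gene Nuf2 by 1.03 ± 0.19. Mki67, the usual marker of dividing cells, changed by 0.46 ± 0.16 (adjusted p = 0.061). It was called in 6 of the other settings, with an adjusted p of 0.0265 without vehicle array 3, 0.0321 without IMQ array 2 and 0.0359 with the filter on dim genes. In wild-type ears none of either list rose (limma; 5 and 1 at an unadjusted p under 0.05). The difference between the responses passed the test for 0 S phase and 6 mitosis genes. The mitosis mean was 4.7638 to 5.5997 with vehicle and 5.6625 to 6.0697 with IMQ in knockout ears. With vehicle in wild-type ears it was 5.6666 to 5.8994, above the knockout vehicle arrays and within the span of the knockout IMQ arrays. The S phase mean was 4.4747 to 5.0675 and 5.2284 to 5.4859 in knockout ears and 5.0584 to 5.1766 in wild-type vehicle ears. In vehicle ears 1 gene of each list was called lower in the knockout.

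Of 30 ribosome biogenesis genes 29 rose, 5 with the covariates. Ddx21 read 7.12, 7.06, 7.14 and 6.77 with vehicle and 8.36, 8.13, 8.46 and 8.14 with IMQ and rose by 1.25 ± 0.13, Nop2 by 1.24 ± 0.17 and Gnl3 by 1.17 ± 0.12. The exception was Polr1c, a polymerase subunit (0.25 ± 0.15, adjusted p = 0.335). Of 24 genes of the unfolded protein response 16 rose, 2 with the covariates, among them the chaperones Hyou1 (1.18 ± 0.16) and Hspa5 (0.94 ± 0.11) and Asns, asparagine synthetase (1.05 ± 0.17). Of 25 proteasome genes 13 rose, led by the activator gene Psme3 (0.70 ± 0.13), and 0 with the covariates (limma; 3 at an unadjusted p under 0.05).

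Of 29 sterol and fatty acid genes 20 rose and 3 fell, 1 and 2 with the covariates. The cholesterol genes Hsd17b7, Idi1 and Sqle rose by 1.11 ± 0.20, 1.11 ± 0.15 and 1.07 ± 0.14, while the fatty acid genes Scd1, a desaturase, and Elovl6, an elongase, fell (log2 changes -1.28 ± 0.14 and -1.07 ± 0.14). Of 19 glycolysis genes 12 rose and 1 fell, and 4 rose with the covariates. The hypoxia factor gene Hif1a rose by 1.61 ± 0.12, the lactate transporter gene Slc16a1 by 1.45 ± 0.13 and the glucose transporter gene Slc2a1 by 1.40 ± 0.16, and the muscle enzyme gene Pfkm fell by 1.33 ± 0.19. Of 25 antioxidant genes 14 rose and 2 fell, and 3 rose with the covariates. Slc7a11, the cystine transporter, rose by 3.29 ± 0.25, Gsta4 by 2.58 ± 0.31 and Nqo1 by 1.03 ± 0.16, and the metallothionein genes Mt1 and Mt2 rose by 1.31 ± 0.16 and 1.42 ± 0.17. Of 18 prostaglandin and leukotriene genes 7 rose and 3 fell, 1 and 1 with the covariates. Ptgs2 rose by 2.76 ± 0.37 and Ptges by 1.38 ± 0.16.

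Of 20 immediate early genes 11 rose, and 0 with the covariates (limma; 4 at an unadjusted p under 0.05). Fos read 3.72, 4.09, 4.06 and 3.93 with vehicle and 5.05, 6.90, 5.43 and 4.64 with IMQ and rose by 1.55 ± 0.47 (adjusted p = 0.0314). Its call was lost when any 1 of 5 arrays was left out, with an adjusted p of up to 0.118 without IMQ array 2. Junb rose by 1.36 ± 0.17 and Egr1 by 1.30 ± 0.34.

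Transcripts of muscle, cartilage and matrix were lower with IMQ. Of 33 muscle markers 32 fell with a median log2 change of -1.23, and the covariates, which are made from them, left 0 (limma; 4 lower at an unadjusted p under 0.05). Tcap, of the sarcomere, read 8.70, 8.83, 8.07 and 8.84 with vehicle and 6.30, 7.30, 5.98 and 6.35 with IMQ and fell by 2.13 ± 0.29, Casq1, of the calcium store (log2 change -2.09 ± 0.25), Pvalb (log2 change -2.01 ± 0.24) and the myosin gene Myh4 (log2 change -1.89 ± 0.27). Of 41 mitochondrial respiratory chain subunits 5 rose and 3 fell, with a median log2 change of 0.095. The muscle subunits of cytochrome oxidase fell, Cox6a2 (log2 change -1.19 ± 0.27), Cox7a1 (log2 change -1.15 ± 0.25) and Cox8b (log2 change -0.87 ± 0.25). With the covariates Cox6a2 and Cox8b stood at 0.12 and 0.46, the opposite sign and not called, and the call for Cox8b was lost when any 1 of 6 arrays was left out (adjusted p of up to 0.0919 without vehicle array 4).

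Of 20 cartilage markers 12 fell, 3 with the covariates, and their mean was 5.05 to 5.26 with vehicle and 4.22 to 4.50 with IMQ. Lect1, chondromodulin, fell by 1.80 ± 0.22, the matrix proteins Chad and Comp (log2 changes -1.73 ± 0.15 and -1.38 ± 0.18) and Cilp (log2 change -1.47 ± 0.21). Of 26 collagen chains 13 fell and 1 rose, and 4 fell with the covariates. Col8a1 fell by 1.42 ± 0.15 and Col7a1, which anchors the epidermis (log2 change -1.37 ± 0.13), while Col4a1, of vessel basement membranes, rose by 0.99 ± 0.21. Of 23 matrix protease genes 10 rose and 3 fell, and 1 rose with the covariates. Tnc, tenascin C, rose by 2.46 ± 0.32, the urokinase receptor gene Plaur by 2.23 ± 0.31 and Mmp3, stromelysin, by 1.85 ± 0.21, while the inhibitor gene Timp3 fell by 1.54 ± 0.23.

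Of 22 adipocyte markers 5 fell, 0 with the covariates (limma; 2 at an unadjusted p under 0.05). The lipase gene Pnpla2 fell by 0.61 ± 0.20 (adjusted p = 0.0484), a call lost when any 1 of 12 arrays was left out, with an adjusted p of up to 0.174 without IMQ array 4. Fabp4, the fatty acid binding protein of fat, changed by -0.28 ± 0.22 (adjusted p = 0.486). Of 16 nerve and Schwann cell markers 5 fell, 0 with the covariates (3 at an unadjusted p under 0.05).

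Output genes of the circadian clock fell, and this group kept most of its calls with the covariates. Of 19 clock genes 13 fell and 2 rose, and 11 fell with the covariates. In wild-type ears 6 fell and 4 rose, and the difference was called lower for 9 and higher for 0. In vehicle ears 5 were already higher and 1 lower in the knockout, against 0.107% and 0.349% of all genes. The list mean was 5.91 to 6.07 with vehicle and 5.11 to 5.40 with IMQ in knockout ears. In wild-type ears it was 5.66 to 5.76 and 5.42 to 5.62. Dbp, a transcription factor that the clock drives, read 7.93, 8.31, 7.83 and 7.90 with vehicle and 5.56, 5.5, 5.19 and 5.43 with IMQ, a fall of 5.95-fold (adjusted p = 1.63e-07). Hlf and Tef, of the same family, fell (log2 changes -1.78 ± 0.16 and -1.46 ± 0.14), the nuclear receptor gene Nr1d1 (log2 change -1.63 ± 0.17) and Per3 (log2 change -1.51 ± 0.12). Nfil3, which opposes Dbp, rose by 1.02 ± 0.14, while Arntl, the driver of the clock, changed by -0.01 ± 0.14 (adjusted p = 0.98). The hour of collection of each ear was not given, and the part of time of day in these values was not tested.

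Of 14 glucocorticoid-responsive genes 5 rose and 3 fell in knockout ears, with a median log2 change of 0.38. In wild-type ears 8 of them rose and 0 fell, and the difference was called higher for 0 and lower for 4. For 4 clock and glucocorticoid-responsive genes, chosen after their values were seen, the effects of IMQ had opposite signs in the 2 genotypes. Per1 read 7.44, 7.53, 7.53 and 7.38 with vehicle and 6.31, 6.73, 7.01 and 6.21 with IMQ and fell by 0.91 ± 0.15 in knockout ears, but changed by 0.61 ± 0.15 in wild-type ears. The difference of these effects was -1.51 ± 0.21 (adjusted p = 0.0042). The same held for Per2 (difference -1.19 ± 0.18), Klf9 (-1.40 ± 0.23) and Tsc22d3 (-1.38 ± 0.20), and the fall of Tsc22d3 had an adjusted p of 0.143 without vehicle arrays 3 and 4. Per1 averaged 6.75 and 7.35 in wild-type vehicle and IMQ ears and 7.47 and 6.57 in knockout ears. Zbtb16 changed by -0.28 ± 0.27 in knockout ears (adjusted p = 0.613) and by 1.58 ± 0.27 in wild-type ears, and that difference was lost when any 1 of 7 arrays was left out (adjusted p of up to 0.0618).

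**Figure D4:**
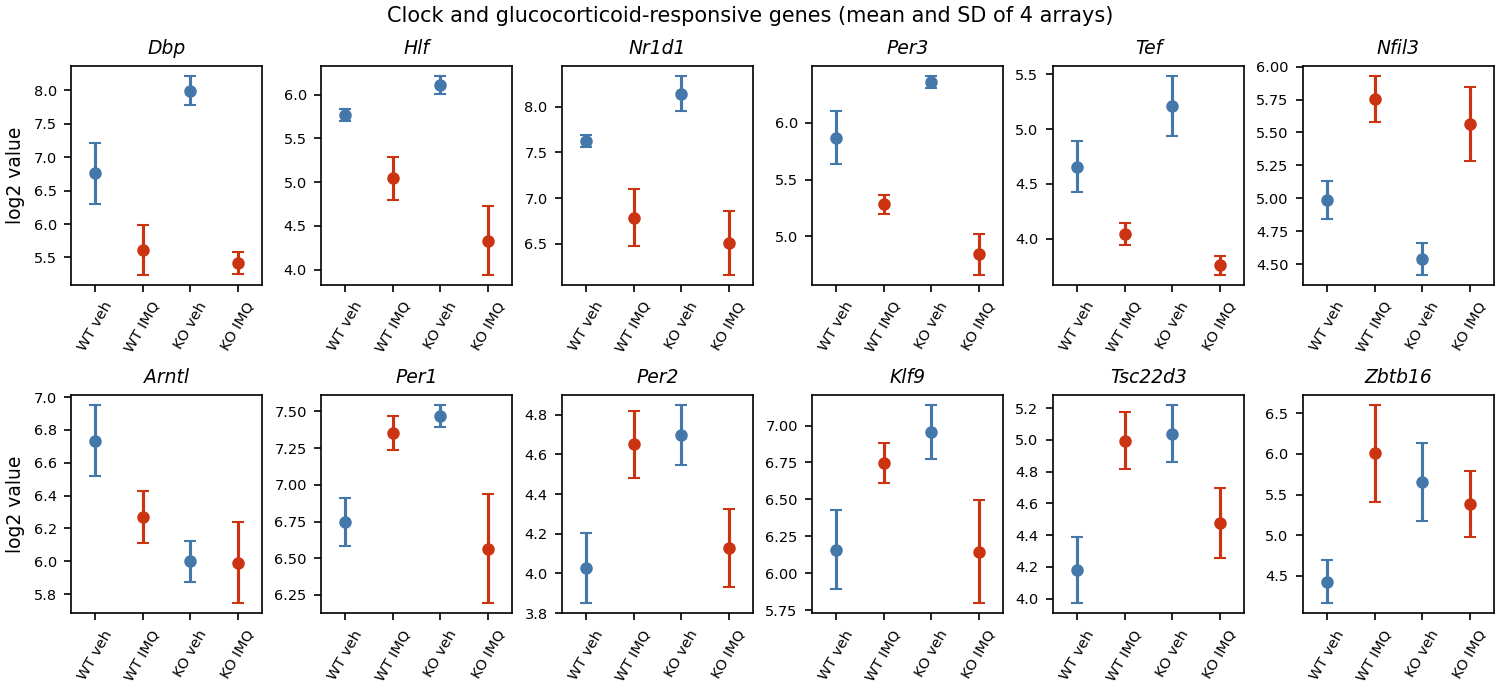
Mean deposited log2 value (y axis) with SD of 4 arrays for 12 clock and glucocorticoid-responsive genes in wild-type (WT) and knockout (KO) ears with vehicle (veh) or IMQ (x axis); each axis has its own range. Dbp falls in both genotypes, while Per1, Per2, Klf9 and Tsc22d3 are lower with IMQ in knockout ears and higher in wild-type ears.

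Set against wild-type ears, most of the larger changes in knockout ears had the same direction. Of the 454 genes that rose at least 2-fold, 446 had the same sign in wild-type ears and 222 were called there, and of the 367 that fell, 310 and 141. The difference of the effects was called for 164 genes (0.53%) with a higher and 223 (0.721%) with a lower effect in knockout ears. As a description of genes chosen for that difference, which favours such values, all 164 of the first kind had a lower mean in knockout than in wild-type vehicle ears (median -0.67) and a higher mean with IMQ (median 0.34). In vehicle ears themselves 33 genes (0.107%) were higher and 108 (0.349%) lower in the knockout. With the muscle and adipocyte covariates no difference was called (limma, against 164 and 223 without them, with 2335 genes at an unadjusted p under 0.05).

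Epidermal genes led the larger effects. Lce3d averaged 8.96 and 9.34 in wild-type vehicle and IMQ ears and 6.67 and 9.78 in knockout ears, a difference of effects of 2.74 ± 0.51 (adjusted p = 0.0144). Defb4 averaged 6.21 and 7.55 in wild-type and 4.24 and 8.28 in knockout ears, a difference of 2.69 ± 0.35. The knockout values were thus lower with vehicle and higher with IMQ for both genes. Differences of this sign also held in every single-array omission for Defb3 (2.67 ± 0.46), Sprr1a (2.48 ± 0.33), Rptn (2.34 ± 0.40), S100a7a (2.10 ± 0.37), Slpi (1.87 ± 0.32), Klk10 (1.85 ± 0.26), Il1a (1.44 ± 0.22), Il1f6 (1.25 ± 0.24) and Il33 (1.14 ± 0.17). The differences for Sprr2e (2.55 ± 0.55) and Gsta4 (2.12 ± 0.43) did not: they were lost when any 1 of 8 and of 4 of the 16 arrays was left out, with adjusted p of up to 0.0704 and 0.0582 without wild-type vehicle array 1.

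In the other direction, Tcap averaged 7.41 and 7.55 in wild-type ears and 8.61 and 6.48 in knockout ears, a difference of -2.28 ± 0.41 (adjusted p = 0.0128), and Myh4 differed by -2.02 ± 0.39. Of the 33 muscle markers 15 were called for a lower effect in the knockout. Lyz1 averaged 4.2 and 4.88 in wild-type ears and 4.92 and 3.71 in knockout ears, a difference of -1.89 ± 0.37. Myoc, myocilin, fell by 1.29 ± 0.18 in knockout ears and changed by 0.48 ± 0.18 in wild-type ears, a difference of -1.78 ± 0.26. Pvalb differed by -1.70 ± 0.34, a call lost without wild-type vehicle array 1 (adjusted p = 0.0532). Of 62 named genes called for the difference, 28 lost the call in at least 1 setting other than the covariates.

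**Figure D5:**
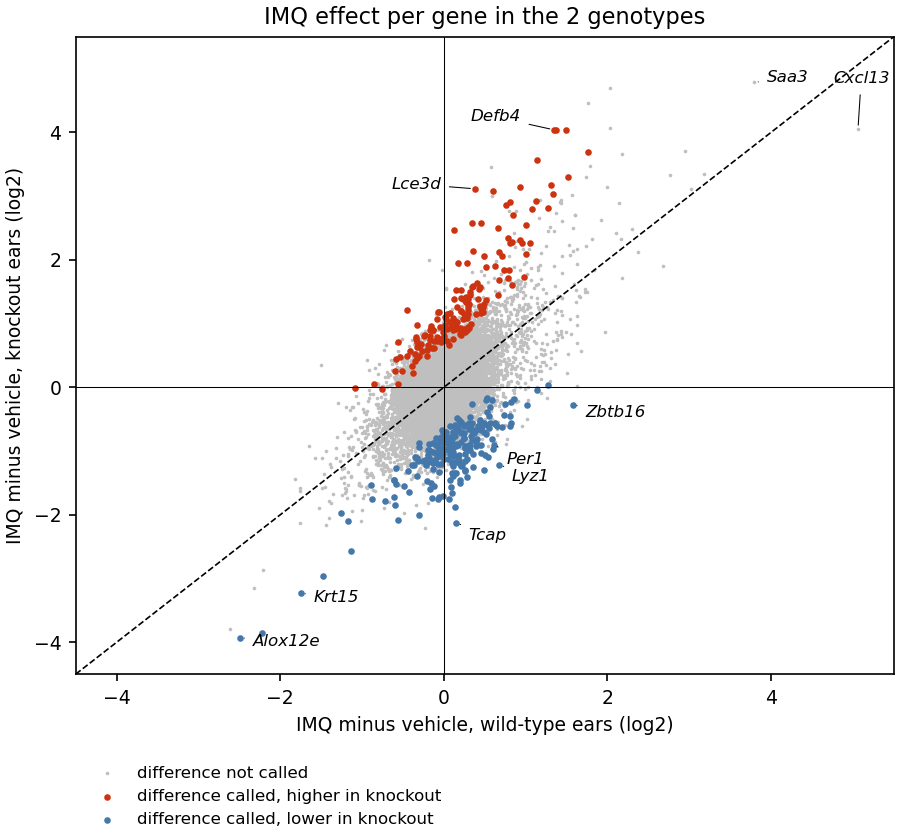
Log2 change with IMQ in wild-type ears (x axis) and in knockout ears (y axis) for each of the 30943 genes; the dashed line marks equal effects, and colours mark the 164 and 223 genes whose effects differed. Defb4 and Lce3d lie above the line, Tcap, Lyz1 and Per1 below it, and Saa3 and Cxcl13 rose in both genotypes.

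Short motifs were searched on both strands in the 250 bases before the start of 17442 genes with a RefSeq promoter (GRCm38.p6). The AP-1 letters TGANTCA lay in 7.41% of all promoters, in 12.7% of the 316 of genes that rose at least 2-fold, in 21.0% of the 62 that rose at least 4-fold and in 8.56% of the 257 that fell at least 2-fold. The C/EBP letters TTGCNNAA lay in 10.3%, 15.8%, 27.4% and 15.95%. The NF-kB motif, matched over 10 bases, lay in 1.26%, 1.58%, 3.23% and 0.778%, and the E-box CACGTG in 7.67%, 7.28%, 6.45% and 8.56%. The last 3 NF-kB shares are few genes, 5 of 316, 2 of 62 and 2 of 257, and the 2 of 62 are Cxcl1 and Cxcl3. Stretches of 60 bases are shown for genes described above, on the strand of the gene, with the match in capitals. A match is a description and not a shown site. Matches were not limited to 1 direction of change. The AP-1 letters also stood before Lor, Flg2 and Hal, the NF-kB motif before H2-Aa and Cox7a1 and the C/EBP letters before Krt77 and Retnla, which all fell. The E-box also stood before Slpi and Hif1a, which rose. The NF-kB motif stood before the chemokines Cxcl1 (chr5:90891149-90891208, plus strand) and Cxcl3 (chr5:90786003-90786062, plus) and the inhibitor Nfkbia (chr12:55492648-55492707, minus).
Cxcl1: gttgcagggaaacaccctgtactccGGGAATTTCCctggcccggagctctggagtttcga
Cxcl3: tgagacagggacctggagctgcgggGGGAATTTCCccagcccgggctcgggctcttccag
Nfkbia: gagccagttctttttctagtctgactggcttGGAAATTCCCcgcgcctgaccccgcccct
The AP-1 letters stood before the envelope genes Sprr1a (chr3:92485964-92486023, minus) and Rptn (chr3:93393577-93393636, plus), and the C/EBP letters before Lcn2 (chr2:32387922-32387981, minus) and Saa3 (chr7:46715742-46715801, minus).
Sprr1a: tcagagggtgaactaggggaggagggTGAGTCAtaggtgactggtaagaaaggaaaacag
Rptn: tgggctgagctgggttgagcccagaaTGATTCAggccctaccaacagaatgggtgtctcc
Lcn2: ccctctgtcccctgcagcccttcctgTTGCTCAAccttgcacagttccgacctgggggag
Saa3: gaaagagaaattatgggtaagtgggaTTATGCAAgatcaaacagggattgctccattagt
The E-box stood before the clock genes Tef (chr15:81802519-81802578, plus) and Per1 (chr11:69098756-69098815, plus).
Tef: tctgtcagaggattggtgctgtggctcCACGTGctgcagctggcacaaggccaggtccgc
Per1: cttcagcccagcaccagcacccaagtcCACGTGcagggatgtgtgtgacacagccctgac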

How the data were processed

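RNA from 16 ear flaps was measured on 16 arrays. The authors deposited log2 values per probe cluster. The submitters' processing notes name Affymetrix Expression Console, without the summarisation method, the version or the build. Depth has no counterpart on arrays, and the number of arrays limits the precision. Clusters with a symbol in the deposited annotation were kept, 1 per symbol (the highest mean over the 16 arrays), which left 30943 of 41345 clusters; no filter was set on dim genes. Values were used as deposited in limma 3.58.1 (R 4.3.3), with the 4 group means, all 16 arrays and 12 residual degrees of freedom. Benjamini-Hochberg adjustment ran over all genes, and a gene was called at an adjusted p under 0.05. The fit was tested on simulated data. Tables and figures used Python 3.11.15, pandas 2.3.3 and matplotlib 3.10.9. Fold changes are 2 to the log2 change, and ± is the standard error of the fit.

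Members, lists and tests were chosen with earlier results of these data known. Named genes were the 15 largest rises and 15 largest falls with no overlap of arrays, up to 3 called members of each list with the largest change, a fixed set of pathway and marker genes, and the 10 largest differences in each direction; some are given by a count only, and a few are not reported here. Further members named within a list, and most clock genes, were chosen after their values were seen. Alternatives were a filter on dim genes, quantile normalization, median centring, a trended robust variance, array weights, the compared groups alone, the array number as a block, every cluster, left-out arrays, and the muscle and adipocyte means as covariates. Same-numbered knockout arrays did not deviate together (correlations from -0.03 to 0.01), so numbers were taken as names and not as pairs.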

Additional observations from a re-analysis of the deposited data

Results flagged for a closer look

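Dixon's test, which chance passes in about 1 of 20 groups, found an array apart from the other 3 of its group in 25 of the 408 groups tested for the genes named here, 6.13%, against 5.76% over all genes. Knockout IMQ array 3 stood apart for Irak2 (5.24), Il1b (8.24), Il23a (3.26), Ccl3 (7.66), Ccr1 (3.62), Cxcl13 (8.80), Itgam (6.93), H2-Aa (5.52) and Flg2 (6.56). Knockout vehicle array 3 stood apart for Tlr7 (2.63), Stfa2l1 (4.87), Alox8 (8.02) and Pfkm (6.79). Knockout vehicle array 4 stood apart for Irak1 (6.20), Irak3 (5.77), Nuak1 (6.90) and Hsd17b7 (6.32). Knockout IMQ array 1 stood apart for Cd207 (3.81), Tef (3.88) and Cilp (5.10). Knockout vehicle array 1 stood apart for Cxcl13 (3.10), Dsc2 (3.27) and Nfil3 (4.36). Knockout IMQ array 4 stood apart for Nfil3 (5.14). Knockout vehicle array 2 stood apart for Ccl19 (5.83). These values are deposited log2 values.

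The effect of IMQ differed between the genotypes for 62 of the named genes at an adjusted p under 0.05 (limma), 36 with a higher and 26 with a lower effect in knockout ears. Values are knockout minus wild-type log2 effects. A higher effect in the knockout kept its call without each of the 16 arrays in turn for Lce3d (2.74), Defb4 (2.69), Defb3 (2.67), Sprr1a (2.48), Rptn (2.34), Sprr1b (2.23), S100a7a (2.10), Sprr2j-ps (1.92), Slpi (1.87), Klk10 (1.85), Dhrs9 (1.77), Il1a (1.44), Il1f6 (1.25), Crabp2 (1.23), Il33 (1.14), Il1f9 (1.09), Gja1 (1.04), Cers3 (1.0) and Ugcg (0.90). The call for a higher effect was lost without at least 1 array, with the number of such arrays and the highest adjusted p given, for Slc7a11 (1.77, 3 of 16, 0.0511), Klk13 (1.56, 3 of 16, 0.0574), Gsta4 (2.12, 4 of 16, 0.0582), Cdc20 (0.81, 6 of 16, 0.0672), Prss27 (1.45, 8 of 16, 0.0675), Sprr2e (2.55, 8 of 16, 0.0704), Il1f8 (1.10, 9 of 16, 0.08), Klk6 (1.86, 10 of 16, 0.0919), Hbegf (1.72, 10 of 16, 0.0813), Lce3a (1.55, 10 of 16, 0.0805), Ddx21 (0.80, 10 of 16, 0.0919), Spink5 (0.61, 10 of 16, 0.0851), Hif1a (0.78, 11 of 16, 0.0829), Gjb2 (1.70, 13 of 16, 0.0971), Slc16a1 (0.78, 13 of 16, 0.0881), Plk1 (1.16, 13 of 16, 0.106) and Ptges (0.96, 14 of 16, 0.0916). A lower effect in the knockout kept its call without each of the 16 arrays in turn for Tcap (-2.28), Myh4 (-2.02), Lyz1 (-1.89), Myoc (-1.78), Flg2 (-1.64), S100b (-1.55), Per1 (-1.51), Krt15 (-1.49), Alox12e (-1.44), Dbp (-1.44), Klf9 (-1.40), Tsc22d3 (-1.38), Per2 (-1.19), Chad (-1.11) and Per3 (-0.93). The call for a lower effect was lost without at least 1 array, with the number of such arrays and the highest adjusted p given, for Pvalb (-1.70, 1 of 16, 0.0532), Hlf (-1.06, 7 of 16, 0.0675), Zbtb16 (-1.85, 7 of 16, 0.0618), Lgr6 (-1.05, 7 of 16, 0.0681), Lce1m (-1.48, 8 of 16, 0.0711), Lifr (-0.88, 10 of 16, 0.0909), Tef (-0.84, 12 of 16, 0.0968), Pnpla2 (-1.26, 12 of 16, 0.0855), Casq1 (-1.53, 12 of 16, 0.0941), Fabp4 (-1.29, 12 of 16, 0.103) and Cilp (-1.27, 15 of 16, 0.112). None of the 62 differences was called with the muscle and adipocyte means as covariates, where 2335 of all genes had an unadjusted p under 0.05.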

How the results depend on the processing

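In knockout ears, 2496 genes rose and 2138 fell. With the muscle and adipocyte means as covariates 341 rose and 393 fell, and without vehicle arrays 3 and 4 together 1650 rose. Leaving out each array in turn gave 1948 to 2463 that rose and 1675 to 2155 that fell. In wild-type ears (603 and 523) the covariates gave 246 and 269, and single omissions 384 to 666 and 371 to 544. The higher and lower differences of effects (164 and 223) were 0 and 0 with the covariates, 330 and 393 with the filter on dim genes, and the higher ones 321 with a trended robust variance and 259 with array weights. Single omissions gave 56 without wild-type vehicle array 1 to 341 without knockout vehicle array 3, and 93 to 483 for the same arrays. In vehicle ears (33 and 108) the counts were 111 and 246 with the filter, 84 and 259 with a trended robust variance, 67 and 170 with array weights, 77 and 163 with the replicate block, 1 and 1 with the covariates and, for the higher ones, 55 with quantile normalization. Single omissions gave 6 to 200 and 29 to 274. With the array number as a replicate block, 2423 genes rose and 2058 fell in knockout ears and 181 and 258 differences were called; no array correlated best with its own number. Of 187 named genes called in knockout ears, 172 kept the call in every setting other than the covariates, and 91 kept it with them. Cox6a2 (0.12) and Cox8b (0.46) changed sign with the covariates. The muscle means of the 2 knockout groups do not overlap, so that fit compares groups where few arrays share a level. Probes near the floor, such as those of Mir146, Il17a and Il22, limit what could be measured.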

Other observations

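Further gene groups of the ear are given as counts of calls for IMQ in knockout ears. Over all genes 8.07% rose and 6.91% fell. Of 23 hair shaft and inner root sheath genes 0 rose and 1 fell, of 10 melanocyte markers 0 and 0, and of 7 erythroid genes 0 and 1. In these lists 17, 5 and 5 genes lay below the array median in both knockout groups, which limits what could be measured. Of 19 fatty acid oxidation genes 3 rose and 2 fell. Of 18 sebaceous gland genes 5 fell and 2 rose, and of 14 smooth muscle and pericyte markers 5 fell and 0 rose. Of 18 fibroblast markers 2 rose and 5 fell. For the sebaceous, smooth muscle and fibroblast lists the share that fell was above that of all genes. At an unadjusted p under 0.05 (limma) the counts were 1 and 1 for hair shaft genes, 0 and 1 for melanocyte markers, 0 and 5 for erythroid genes and 0 and 7 for smooth muscle markers.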
